A study of Mus musculus with 78 samples.

Results

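The contacts of 2 neighbouring promoters on mouse chromosome 16, those of Cpox and Cldnd1, were measured by 4C-seq with and without the transcription factor ZFP143. The members were the 8 of 28 4C libraries whose viewpoint lay in either gene, out of 78 samples in the series. Each viewpoint had 2 DMSO and 2 dTAG-V1 libraries, and restriction fragments between 20 kb and 1 Mb from the viewpoint were used. These were 4460 fragments for Cpox and 4497 for Cldnd1, of 5972054 in the genome-wide map. One viewpoint is labelled with the symbol Cldn1, a claudin gene, but its coordinates and primers lie in Cldnd1, and it is called Cldnd1 here.

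All libraries came from E14TG2a mouse embryonic stem cells of the genotype ZFP143-FKBP, in which both copies of the endogenous Zfp143 gene carry a cassette of FKBP, HA epitopes, P2A and GFP before the stop codon. The 4C cells received either DMSO or 500 nM dTAG-V1, a small molecule that directs FKBP-tagged protein to degradation, and the treated cells were taken after 6 h. The controls therefore carried the tagged allele too, and the cells were grown in serum-free medium with LIF and inhibitors of MEK and GSK3. The tagged cells descend from sorted single cells, and the labels do not say how many clones were used. The study described 2 biological replicates. Whether the Cpox and Cldnd1 libraries of 1 replicate came from the same ligated DNA is not stated, so the 2 viewpoints were not counted as independent experiments.

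In 4C-seq, crosslinked chromatin is cut, pieces that lay close together are ligated, and everything joined to 1 chosen fragment, the viewpoint, is amplified and read. ZFP143, called ZNF143 in humans, binds near the starts of many genes and is known as an activator of transcription. Cpox encodes coproporphyrinogen oxidase, a mitochondrial enzyme of haem synthesis, and Cldnd1 encodes a membrane protein related to the claudins. The comparison addresses whether contacts of such promoters differ once ZFP143 is depleted. The viewpoints had not been picked at random, since an early fall of nascent RNA, a loop in other contact maps and a ZFP143 peak were grounds for taking them.

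Both genes run toward higher coordinates in mm10. Cpox starts at chr16:58670292 and Cldnd1 at chr16:58727910, 57.618 kb apart. The Cpox viewpoint, chr16:58671886-58672716, begins 1594 bases after the gene start and holds the whole of exon 2, 144 bases long, with intron on either side. The Cldnd1 viewpoint, chr16:58728311-58728567, begins 401 bases after the gene start in intron 1. Between the viewpoints lie 56.138 kb. The reading primers decide which ligated ends were counted, so they are printed here 5′ to 3′ with the GATC cut site of the first enzyme in capitals. The Cpox primer reads the minus strand at chr16:58671886-58671905, and the Cldnd1 primer reads the plus strand at chr16:58728548-58728567.
Cpox reading primer: agggcaccatattcaaGATC
Cldnd1 reading primer: gggtttgactcagcgtGATC
Each of them matched chromosome 16 at 1 place, and so did both non-reading primers.

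The promoters are shown because the 2 windows that the contacts turn on are centred on their starts. They are the 250 bases before each gene start in the RefSeq table for mm10, plus strand, at chr16:58669958-58670207 for Cpox and chr16:58727660-58727909 for Cldnd1. Capitals mark ACTACA, letters that open a known binding sequence of ZNF143. The Cldnd1 viewpoint, plus strand, is printed with GATC and with TGTAGT, the same letters read on the minus strand, in capitals.
Cpox promoter: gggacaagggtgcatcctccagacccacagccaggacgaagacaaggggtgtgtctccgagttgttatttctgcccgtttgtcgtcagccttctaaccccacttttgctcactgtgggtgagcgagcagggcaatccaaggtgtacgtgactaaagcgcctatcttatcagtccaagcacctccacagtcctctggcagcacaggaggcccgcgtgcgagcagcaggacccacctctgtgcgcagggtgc
Cldnd1 promoter: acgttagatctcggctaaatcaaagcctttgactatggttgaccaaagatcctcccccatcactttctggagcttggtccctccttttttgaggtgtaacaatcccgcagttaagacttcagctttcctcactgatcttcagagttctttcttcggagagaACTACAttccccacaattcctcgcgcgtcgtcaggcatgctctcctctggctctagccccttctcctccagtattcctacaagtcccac
Cldnd1 viewpoint: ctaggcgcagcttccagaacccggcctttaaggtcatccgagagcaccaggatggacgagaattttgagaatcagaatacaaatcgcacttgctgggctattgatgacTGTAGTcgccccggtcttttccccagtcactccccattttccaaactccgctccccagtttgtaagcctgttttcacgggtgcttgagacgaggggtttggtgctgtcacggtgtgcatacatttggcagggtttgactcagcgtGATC
ACTACA on either strand occurred in 3395 of 32851 promoter entries of the table, 10.3%, each entry being 300 bases long. It occurred 1 time in the Cldnd1 entry and 0 times in that of Cpox, and 1 time in the Cldnd1 viewpoint and 0 times in that of Cpox. The study described 2 motifs in its ZFP143 peaks, SBS1 and SBS2, and neither was searched here in full. A count of 0 therefore does not show that a site is absent. The Cldnd1 promoter match, at chr16:58727821-58727826, lies inside the ZFP143 peak chr16:58727623-58728360, 96 bases from the peak summit. That peak had an enrichment of 53.5-fold over input and also overlaps the first bases of the Cldnd1 viewpoint. A peak at the Cpox start was not analysed here, because the list used held 3189 peaks with running numbers up to 3324, and 2 of the 135 numbers not among its rows fall between the peak before Cpox and that of Cldnd1.

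The files give RPM, read counts brought to the same library total, and whole reads could be recovered for 100% of the values. The Cpox libraries held 346005 and 415937 reads in DMSO and 440099 and 375155 after dTAG-V1. The Cldnd1 libraries held 351935 and 310261 reads in DMSO and 423437 and 370751 after dTAG-V1. Between 80.3% and 82.8% of Cpox reads and between 75.7% and 77.2% of Cldnd1 reads were on chromosome 16. No pair of 4C libraries was identical. Across the 195 bins of 10 kb with enough signal, pairs of libraries of 1 viewpoint had Pearson correlations of log2 RPM from 0.846 to 0.893 for Cpox and from 0.877 to 0.922 for Cldnd1. These correlations are over bins, which share the fall of contacts with distance, and the DMSO pair gave the lowest value in both viewpoints.

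**Figure D1:**
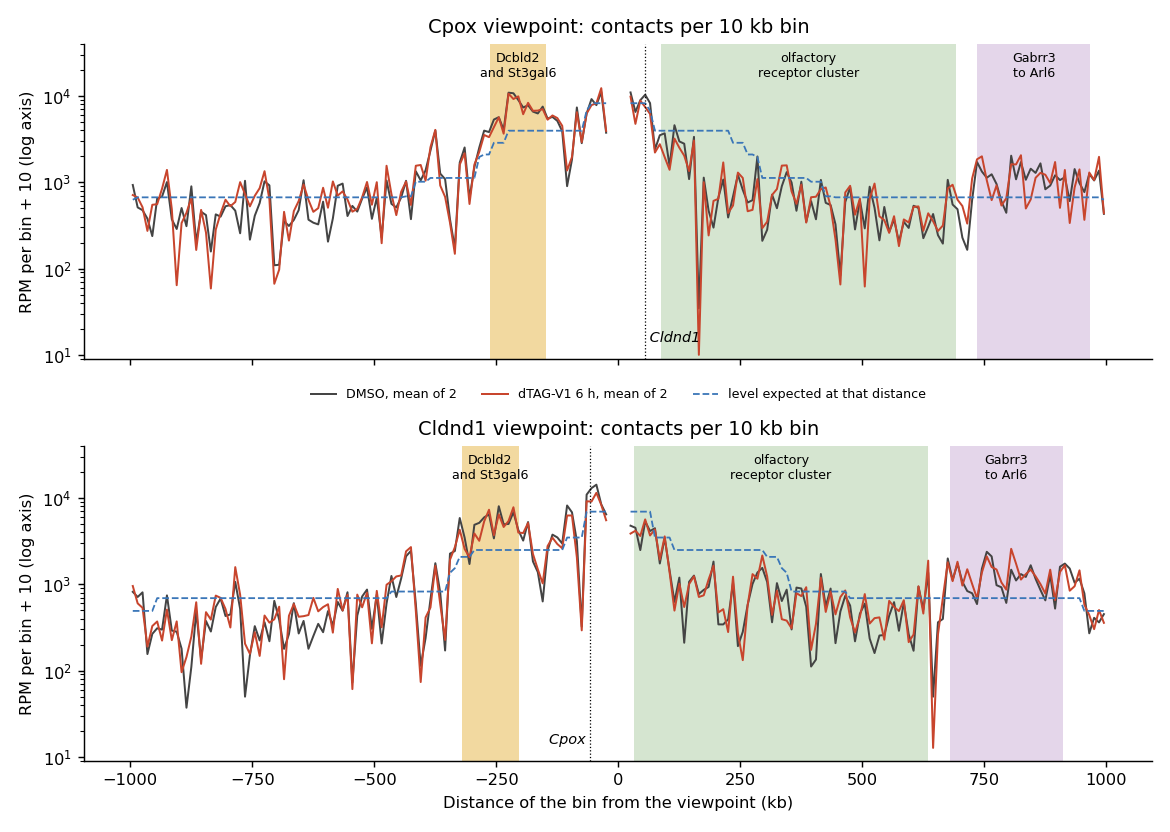
Mean RPM plus 10 per 10 kb bin (log axis) against the distance of the bin from the Cpox (top) and Cldnd1 (bottom) viewpoint in kb, for DMSO (dark line, mean of 2 libraries) and dTAG-V1 (red line, mean of 2 libraries), with the level expected at each distance (dashed). Shaded bands are named regions and the dotted line is the start of the partner gene. The lines follow each other over most of the 1 Mb on each side, and at the partner gene the red line lies below the dark one.

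Each promoter contacted the window of the other less in dTAG-V1-treated cells, by about the same amount in both directions. A 10 kb window centred on each gene start was summed for this comparison. From the Cldnd1 viewpoint, the Cpox window held 15111 and 15690 RPM in DMSO and 11529 and 11547 RPM after dTAG-V1. From the Cpox viewpoint, the Cldnd1 window held 11182 and 10660 RPM in DMSO and 8164 and 8135 RPM after dTAG-V1. In both directions the dTAG-V1 libraries were below both DMSO libraries, and the groups did not overlap.

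The Cpox window was 25.1% lower, a log2 difference of -0.42, and its limma adjusted p was 5.94e-27. That p rests on the variance that the fit assigned to windows of this level from its trend over the Cldnd1 windows, an SD of 0.0273 log2 units beside 0.0271 between the replicates. The fit counted 118 degrees of freedom, pooled over the 59 windows, some of which share fragments, although each group held 2 libraries. With 1 trend over all 7 viewpoints the limma adjusted p was 0.70, with an interval of -0.71 to -0.12 and an unadjusted p of 0.0104. With no trend the limma adjusted p was 0.828. The call was also lost without dTAG-V1 replicate 1, where the limma adjusted p was 0.202, and without replicate 2, where it was 0.308. On the recovered reads edgeR gave an adjusted p of 4.52e-27 with a trend of the same kind.

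The Cldnd1 window, seen from Cpox, was 25.4% lower, a log2 difference of -0.42 with an interval of -0.64 to -0.20. Its unadjusted p was 0.000808 and its adjusted p was 0.181 in limma, and it was not called. Without DMSO replicate 1 the limma adjusted p was 0.0131 and without DMSO replicate 2 it was 0.00821, so that either omission turned it into a call. An exact two-sided permutation test gave p = 0.333 for each direction, the smallest value that 2 against 2 libraries can give. Among the promoter windows of all genes near the 7 viewpoints 1 of 447, or 0.224%, was called, and it was that of Cpox.

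The partner was the strongest or next to strongest promoter contact of each viewpoint. Of 59 promoter windows per viewpoint, that of Cpox ranked 1 by mean level from Cldnd1, and that of Cldnd1 ranked 2 by mean level from Cpox. Both ranked 1 by unadjusted p. The Cpox window was at 1.94 times the level expected at its distance and the Cldnd1 window at 1.17 times. The expected level was a curve that falls with distance, fitted to the mean of the 4 libraries on both sides together.

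The lower values were spread over many fragments. The Cpox window rested on 4281 to 5318 reads per library over 22 fragments, of which 16 of the 20 with any read had a lower mean after dTAG-V1. The Cldnd1 window rested on 3052 to 4434 reads over 18 fragments, of which 16 of the 17 with any read were lower. Neighbouring fragments of 1 library are not replicates, and these counts describe how the sum was made up. The share of fragments lower elsewhere was not computed. Of the 10 kb bins 20 to 100 kb from the 7 viewpoints, 65.8% had a negative log2 difference. With the highest fragment of each library left out, the Cpox window held 12667 and 13666 RPM in DMSO and 9276 and 9575 RPM after dTAG-V1. The Cldnd1 window then held 9133 and 8619 RPM against 7139 and 6339 RPM. Neither window depended on its most read fragment for its order.

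**Figure D2:**
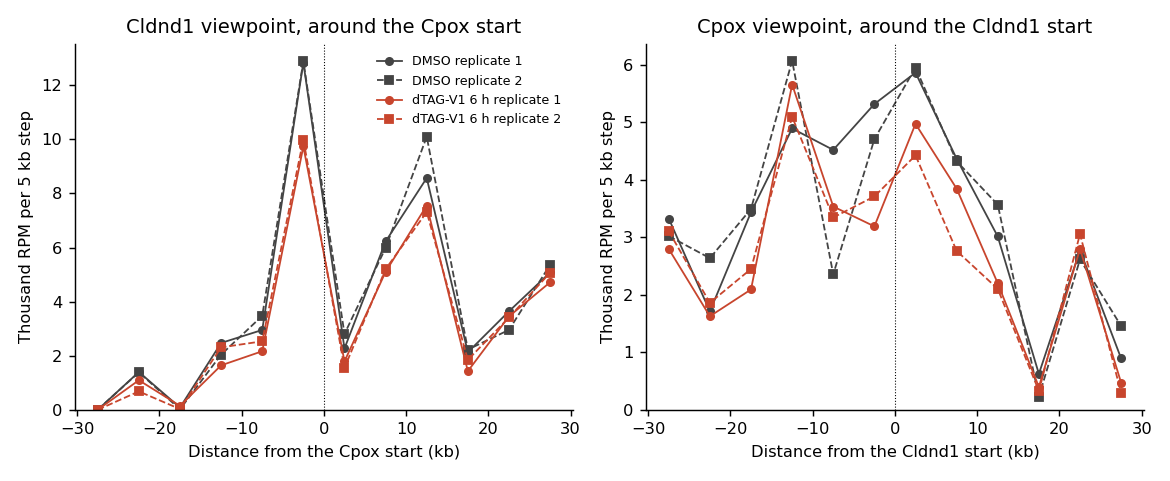
RPM per 5 kb step from 30 kb before to 30 kb after the start of the partner gene, for the 4 libraries of each viewpoint (dark for DMSO, red for dTAG-V1, circles for replicate 1, squares for replicate 2). Both red points lie below both dark points from 10 kb before to 20 kb after the Cpox start, and from 5 kb before to 15 kb after the Cldnd1 start, and in 2 steps farther from the start in each panel.

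In 5 kb steps, lower contact was seen along both partner genes and in some steps farther out. For comparison, 30.6% of the 10 kb bins 20 to 100 kb from the 7 viewpoints were lower without overlap. The share for 5 kb steps was not computed, and neighbouring steps of 1 library are not replicates. Seen from Cldnd1, the step just before the Cpox start was the highest of the 12, with 12843 and 12886 RPM in DMSO and 9739 and 9996 RPM after dTAG-V1. The 6 steps from 10 kb before to 20 kb after the Cpox start were all lower without overlap, by 0.24 to 0.59 on the log2 scale. So were the steps from 25 to 20 kb before it, at a log2 difference of -0.68, and from 25 to 30 kb after it, at -0.09. Seen from Cpox, the 4 steps from 5 kb before to 15 kb after the Cldnd1 start were lower without overlap, by 0.33 to 0.61 on the log2 scale. So were the steps from 20 to 15 kb before it, at a log2 difference of -0.61, and from 25 to 30 kb after it, which had the greatest difference of the 12, at 893 and 1457 RPM in DMSO and 470 and 293 RPM after dTAG-V1. In the step from 20 to 25 kb after it the groups were again separate but in the other direction, at 2775 and 2616 RPM in DMSO and 2797 and 3057 RPM after dTAG-V1. The Gpr15 start, which encodes a G protein-coupled receptor and lies between the viewpoints, was at 8774 and 7578 RPM in DMSO and 8078 and 7149 RPM after dTAG-V1 from Cpox. These values overlapped.

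Over the 10 kb bins of the whole window, few differences passed the test. From the Cldnd1 viewpoint 2 of 195 bins were called by limma, both lower after dTAG-V1, and both lie on the Cpox gene. From the Cpox viewpoint limma called 0 of 195, with 12 at an unadjusted p under 0.05, and edgeR on the recovered reads also called 0. For Cldnd1, 16 bins had an unadjusted p under 0.05, and edgeR called 2. Over the 7 viewpoints 2 of 1327 bins were called, 0.151%, so both called bins of the whole data set were these.

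The bin chr16:58668439-58678438, which holds the Cpox start, had 12724 and 13221 RPM in DMSO and 9033 and 9103 RPM after dTAG-V1 in the Cldnd1 libraries. Its log2 difference was -0.52 and its limma adjusted p was 9.84e-09. The next bin, chr16:58678439-58688438, which holds exon 7, the last of the Cpox transcript used here, had 13761 and 14691 RPM against 11423 and 11487 RPM. Its log2 difference was -0.31 and its limma adjusted p was 4.94e-04. Both were lower in each dTAG-V1 library than in each DMSO library, and both calls were lost with no trend, with 1 trend over 7 viewpoints and with the replicate number as a block, where the limma adjusted p was 0.347 and 0.545. The log2 differences stayed at -0.52 and -0.31 in these fits. The call of the first bin was also lost without dTAG-V1 replicate 1, at a log2 difference of -0.51 and a limma adjusted p of 0.0628. That of the next bin was lost without dTAG-V1 replicate 1 or 2, at log2 differences of -0.31 and -0.32 and limma adjusted p-values of 0.81 and 0.861, and when scaled to the reads of the window, at -0.26 and 0.114. From Cpox, the bin chr16:58722301-58732300 with the Cldnd1 start and its ZFP143 peak had the lowest p, at 10465 and 10151 RPM against 7278 and 7589 RPM. Its log2 difference was -0.47 and its limma adjusted p was 0.449.

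The number of called bins turned on single libraries. For Cldnd1 it was 5 without DMSO replicate 1, 4 without DMSO replicate 2, 0 without dTAG-V1 replicate 1 and 1 without dTAG-V1 replicate 2. For Cpox it was 5 and 1 without either DMSO replicate and 0 without either dTAG-V1 replicate. In these fits the group with 1 library was assumed to vary like the other. Some of the bins called without a DMSO replicate were higher after dTAG-V1, at both viewpoints. The median half-width of the 95% interval of a bin was 0.955 log2 units for Cldnd1 and 1.06 for Cpox over all bins, and 0.347 and 0.341 for bins 20 to 100 kb away. These intervals are not adjusted for the number of bins, so a call in a typical bin needed a larger difference than these.

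**Figure D3:**
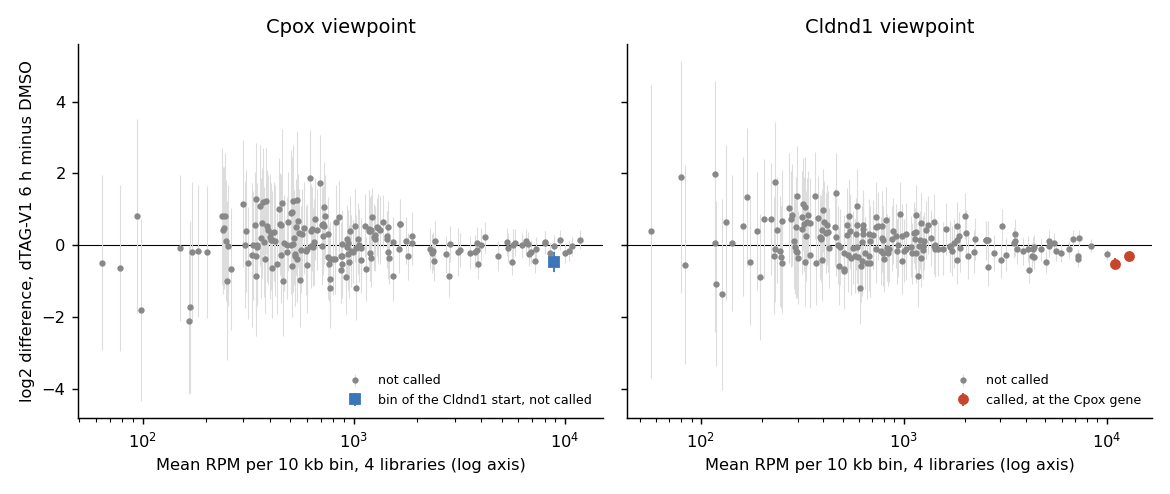
Log2 difference of each 10 kb bin, dTAG-V1 at 6 h minus DMSO, with its 95% limma interval (vertical lines), against the mean RPM of the bin over 4 libraries (log axis). The 2 called bins of the Cldnd1 viewpoint, at -0.52 and -0.31, lie at high RPM on the Cpox gene, and the bin of the Cldnd1 start at -0.47 in the Cpox panel was not called.

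The other bins with the lowest p lay elsewhere and were not called. Seen from Cldnd1, the bin chr16:58438439-58448438 in Dcbld2, a gene for a membrane receptor-like protein, holds a CTCF peak and had 4333 and 5937 RPM in DMSO and 2801 and 3550 RPM after dTAG-V1. Its log2 difference was -0.68 with a limma adjusted p of 0.152. Seen from Cpox, the bin chr16:58762301-58772300 at the olfactory receptor gene Olfr172 had 2624 and 4734 RPM against 1820 and 2063 RPM, with a limma adjusted p of 0.554. The bin chr16:57892301-57902300, in an interval without protein-coding genes, went the other way, from 254 and 238 RPM to 1350 and 637 RPM, with a limma adjusted p of 0.615. In each of these 3 bins the groups did not overlap.

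Bins without overlap between the groups were common at all viewpoints. In the 7 viewpoints together 17.6% of bins had both dTAG-V1 libraries below both DMSO libraries and 16.0% had both above. For Cldnd1 they were 27 of 195 below and 43 above, and for Cpox 33 below and 32 above. Within 20 to 100 kb the share below was 30.6% over the 7 viewpoints, and there it was 7 of 16 bins for Cldnd1 and 6 of 16 for Cpox. These counts are small, and the share over the 7 viewpoints includes these bins. Summed over both sides at this distance, reads were also lower without overlap at Zfp108 and Zfp111. The groups overlapped at Rbm41, Sik1 and Prmt6, where the log2 differences were -0.05, -0.17 and 0.14.

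At both viewpoints the lower contact between 20 and 100 kb lay on the side of the partner, whereas within 20 kb the lower share lay on the side away from Cpox for Cldnd1 and on the side of Cldnd1 for Cpox. On the side of Cldnd1, the Cpox libraries had 5.20% and 5.70% of their reads 20 to 100 kb away in DMSO and 4.50% and 4.27% after dTAG-V1. On the opposite side they had 4.93% and 5.09% against 4.996% and 4.963%. The first pair of groups did not overlap and the second did. On the side of Cpox, the Cldnd1 libraries had 6.21% and 6.43% in DMSO and 5.09% and 5.32% after dTAG-V1, and on the opposite side 3.10% and 3.06% against 3.14% and 3.01%. Again the groups were separate on the side of the partner and overlapped on the other. A difference on 1 side was also seen at Rbm41, a viewpoint without a partner among the 7. Its libraries had 5.32% and 4.72% in DMSO and 3.99% and 4.06% after dTAG-V1 on the side of lower coordinates, without overlap, and 7.06% and 6.14% against 7.57% and 6.77% on the other, with overlap. The log2 differences were -0.32 and 0.12. At Zfp108 the groups were separate on the side of higher coordinates, at 7.06% and 7.03% against 6.63% and 6.38%, and overlapped on the other, with log2 differences of -0.12 and -0.11. At Zfp111 both sides were lower without overlap, by log2 differences of -0.20 on the side of lower coordinates and -0.07 on the other.

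The ratio of the 2 sides does not depend on how a library is scaled. For Cpox it was 1.05 and 1.12 in DMSO and 0.901 and 0.860 after dTAG-V1, a log2 difference of -0.30. For Cldnd1 it was 2.01 and 2.10 against 1.62 and 1.77, a log2 difference of -0.28. Both gave p = 0.333 in the exact permutation test, the smallest possible with 2 against 2. By bins, all 8 of the Cldnd1 viewpoint on the side of Cpox had a negative log2 difference, with a median of -0.24, and 5 of them did not overlap between groups. On the side of Cldnd1 the 8 bins of the Cpox viewpoint were also all negative, with a median of -0.31, and 4 did not overlap. On the opposite sides the medians were 0.00 for Cldnd1 and 0.05 for Cpox, and at each viewpoint 2 of the 8 bins there were lower and 1 was higher without overlap. Over the bins of all 7 viewpoints at this distance 30.6% were lower without overlap, and no difference between sides was tested by bins.

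Summed over the whole window from 20 kb to 1 Mb, contacts changed little. The Cpox libraries had 344018 and 344867 RPM in DMSO and 340646 and 328520 RPM after dTAG-V1, a log2 difference of -0.04. The Cldnd1 libraries had 305474 and 302449 RPM against 299327 and 288970 RPM, a log2 difference of -0.05. Both sums were lower without overlap, with p = 0.333 in the exact permutation test. The groups overlapped for Cldnd1 with 50 kb left out around the viewpoint and for Cpox when scaled to reads on the same chromosome, each with p = 0.667 in the exact permutation test. The sizes turned on single dTAG-V1 libraries, with log2 differences of -0.073 and -0.022 for Cldnd1 and -0.068 and -0.016 for Cpox without replicate 1 and without replicate 2. The number of fragments with a read went the other way, with a log2 difference of 0.14 for Cpox and 0.10 for Cldnd1. The sums were also lower without overlap at the Zfp108 and Zfp111 viewpoints and overlapped at those of Prmt6, Rbm41 and Sik1.

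From 1 to 10 Mb away the share of reads was higher after dTAG-V1. There the Cpox libraries had 15.2% and 15.4% of reads in DMSO and 15.8% and 16.6% after dTAG-V1. The Cldnd1 libraries had 15.2% and 14.8% against 16.5% and 16.9%. Neither pair of groups overlapped, and both gave p = 0.333 in the exact permutation test. At this distance the share was also higher without overlap at Zfp111 but lower without overlap at Prmt6. The groups overlapped at Rbm41, Sik1 and Zfp108. Over 10 Mb away on the chromosome the share was higher without overlap for Cldnd1 and overlapped for Cpox. On other chromosomes the Cldnd1 libraries had a lower share without overlap, 23.5% and 24.3% against 22.8% and 23.2%, and the Cpox groups overlapped. Since shares of 1 library add up to the whole, a lower share at 1 distance and a higher share at another cannot be told apart. Within 20 kb of the viewpoint, where uncut and self-ligated DNA adds reads and which was left out above, the Cldnd1 libraries had 6.72% and 6.70% against 5.44% and 5.38% on the side of higher coordinates, and 3.48% and 3.75% against 3.96% and 4.16% on the other. The Cpox libraries there had 8.08% and 7.29% against 6.92% and 7.17% on the side of higher coordinates, and 5.38% and 5.43% against 5.50% and 5.51% on the other. In all 4 cases the groups did not overlap, and at both viewpoints the share was lower after dTAG-V1 on the side of higher coordinates and higher on the other.

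Both viewpoints shared an uneven landscape. Between 100 and 300 kb, bins on the side of lower coordinates had a median of 1.69 times the expected level for Cpox and 1.66 times for Cldnd1. On the side of higher coordinates, where a cluster of 25 olfactory receptor genes begins, the medians were 0.287 and 0.362. Among the regions summed, the strongest was the block of Dcbld2 and St3gal6, a gene for a sialyltransferase. It was at 7043 RPM per 10 kb from Cpox and 4895 RPM per 10 kb from Cldnd1. The olfactory receptor cluster, which lies at other distances, was at 824 and 1033 RPM per 10 kb. Nearer bins on the lower side, 20 to 100 kb away, reached 11708 RPM from Cpox and 12841 RPM from Cldnd1.

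The block of Dcbld2 and St3gal6 held 84473 and 81950 RPM in DMSO and 79705 and 80116 RPM after dTAG-V1 from Cpox, a log2 difference of -0.06. From Cldnd1 it held 56843 and 60311 RPM against 55793 and 53780 RPM, a log2 difference of -0.10. Lower values without overlap were thus seen from both viewpoints. The interval between Col8a1 and Dcbld2, which is poor in genes, was higher without overlap from both, by log2 differences of 0.07 for Cpox and 0.08 for Cldnd1.

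The olfactory receptor cluster differed in sign between the viewpoints. It held 51046 and 51063 RPM in DMSO and 47639 and 49574 RPM after dTAG-V1 from Cpox. From Cldnd1 it held 62500 and 59805 RPM against 64595 and 62783 RPM. The first was lower and the second higher, each without overlap, and the difference between the viewpoints was not tested. The stretch from Gabrr3 to Arl6 had the same pattern, with log2 differences of -0.09 from Cpox and 0.14 from Cldnd1. Every one of these 8 region sums had p = 0.333 in the exact permutation test.

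Of the 5 bins farthest above expectation at each viewpoint none was called. For Cpox the highest was chr16:58292301-58302300, between Col8a1 and Dcbld2, at 3.60 times the expected level, with 3425 and 4515 RPM in DMSO and 4713 and 3361 RPM after dTAG-V1. The next were 3 bins near Gabrr3, Riox2 and Crybg3 and 1 in Dcbld2, at 2.69 to 2.85 times, and in all 5 the groups overlapped. For Cldnd1 the highest was chr16:59478439-59488438 in Riox2, a gene for a ribosomal oxygenase, at 3.28 times, with 1824 and 2907 RPM against 2628 and 1548 RPM. The bin chr16:58298439-58308438 followed at 3.14 times, and it overlaps the top Cpox bin. The 3 others were at 2.91 to 2.96 times. The groups overlapped in the Riox2 bin and were separate in the other 4 Cldnd1 bins, though not in 1 direction. Among all tested Cldnd1 bins 13.8% were lower and 22.1% higher without overlap. The bin between Col8a1 and Dcbld2 was higher after dTAG-V1, at 2364 and 2491 RPM against 2820 and 2549 RPM. That in Crybg3 was higher too, at 1776 and 1151 RPM against 2071 and 3053 RPM, with a limma adjusted p of 0.649. Of the 2 in St3gal6, 1 was higher, at a log2 difference of 0.20, and 1 was lower, at 8396 and 7613 RPM against 6365 and 6481 RPM, a log2 difference of -0.32 with a limma adjusted p of 0.471.

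**Figure D4:**
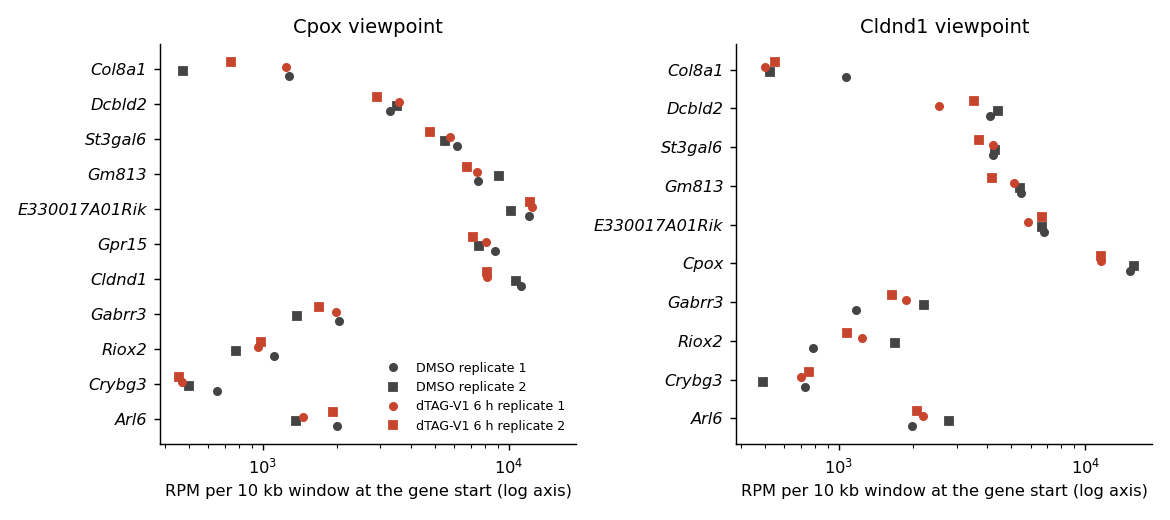
RPM per 10 kb window at the start of each protein-coding gene 20 kb to 1 Mb from the Cpox (left) and Cldnd1 (right) viewpoint, olfactory receptor genes left out, on a log axis, with 1 point per library (dark for DMSO, red for dTAG-V1, circles for replicate 1, squares for replicate 2). At the partner gene both red points lie left of both dark points, at 8164 and 8135 against 11182 and 10660 for Cldnd1 and at 11529 and 11547 against 15111 and 15690 for Cpox.

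Promoter windows other than the partner were called from neither viewpoint by limma or edgeR, with 7 of 59 for Cldnd1 and 5 of 59 for Cpox at an unadjusted limma p under 0.05, the partner included. The windows of the 25 olfactory receptor genes, which encode receptors of sensory neurons, ranged from 160 to 3191 RPM from Cpox and from 283 to 4367 RPM from Cldnd1. From each viewpoint 10 of the 25 had a negative and 15 a positive log2 difference, with medians of 0.08 for Cpox and 0.16 for Cldnd1 beside 0.06 and -0.03 over all windows. Neighbouring olfactory receptor windows share fragments. The Dcbld2 start was at 4120 and 4438 RPM in DMSO and 2548 and 3520 RPM after dTAG-V1 from Cldnd1, with a limma adjusted p of 0.354. From Cpox it was at 3275 and 3501 RPM against 3579 and 2916 RPM, with overlap.

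The only other ZFP143 peak of the list within 1 Mb lay at the promoter of Arl6, a small GTPase of the cilium, at chr16:59639103-59639642. It had an enrichment of 31.9-fold over input, and ACTACA was not found in either Arl6 entry of the promoter table. Its bin stood at 1.92 times the expected level from Cpox and 2.48 times from Cldnd1, with the bin centred 965 and 915 kb away. From Cpox the bin had 1760 and 719 RPM in DMSO and 1100 and 1474 RPM after dTAG-V1, and from Cldnd1 1836 and 1615 RPM against 1703 and 1605 RPM. Both overlapped, with a log2 difference of 0.18 and an interval of -0.73 to 1.08 from Cpox and of -0.06 and -0.75 to 0.64 from Cldnd1. Over all 7 viewpoints, 36 tested bins held a ZFP143 peak, 13 of them lower and 3 higher without overlap, or 36.1% and 8.33%. Over all tested bins these shares were 17.6% and 16.0%, and within 20 to 100 kb 30.6% were lower, and the bins were not matched for distance. By the list used, the 2 called bins were not among the 36. That list lacks rows between the peak before Cpox and that of Cldnd1, so it cannot show whether these bins hold a peak.

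CTCF, a factor that halts loop extrusion by cohesin, had peaks in Dcbld2, St3gal6, Gabrr3, Riox2 and Epha6. There was none between Cpox and Cldnd1 in the list of 22314 peaks. The 7 CTCF bins of the Cldnd1 viewpoint were at 1.40 to 2.94 times the expected level, with a median of 2.10, and the 6 of the Cpox viewpoint at 0.687 to 2.75 times, with a median of 2.52. The median log2 difference was -0.16 for Cldnd1 and -0.07 for Cpox, beside -0.09 over the 117 CTCF bins of all viewpoints. Neither limma nor edgeR called any of them, with 1 of the 7 for Cldnd1 and 0 of the 6 for Cpox at an unadjusted limma p under 0.05.

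Another pair of viewpoints, Zfp108 and Zfp111, which encode zinc finger proteins on another chromosome, gave the only similar test. Their gene starts lie within 50 kb of each other's viewpoint. From Zfp108, the Zfp111 window had 3517 and 3914 RPM in DMSO and 2621 and 2456 RPM after dTAG-V1, a log2 difference of -0.55 with a limma adjusted p of 0.354. From Zfp111, the Zfp108 window had 5933 and 6540 RPM against 6228 and 6626 RPM, a log2 difference of 0.04 with an interval of -0.38 to 0.47. The first was lower without overlap and the second overlapped, so that a lower contact seen from both ends was measured for Cpox and Cldnd1 but not for this pair. The difference between the pairs was not tested.

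Nascent RNA was measured in the same line by TT-seq, in which RNA made during a short pulse of 4-thiouridine is captured. Transcription of both genes was much lower at 6 h. In CPM, counts brought to the same library total, Cpox had 15.4 and 16.4 in DMSO and 2.26 and 0.992 after 6 h of dTAG-V1, a log2 difference of -3.27 ± 0.40 (SE) with an edgeR adjusted p of 0.00328. Cldnd1 had 7.03 and 8.61 CPM against 1.64 and 1.49 CPM, a log2 difference of -2.32 ± 0.28 (SE) with an edgeR adjusted p of 0.00329. Without the first 6 h library the Cpox log2 difference was -3.99 and without the second it was -2.81, with edgeR adjusted p-values of 0.0166 and 0.0352. Without either of the 6 h libraries the edgeR adjusted p of Cldnd1 was 0.0551. The values had fallen by 2 h, to 1.99 and 2.23 CPM for Cpox and 1.91 and 2.05 CPM for Cldnd1. At 24 h they were 1.38 and 2.51 CPM and 1.38 and 1.67 CPM. Since the study chose these promoters for their early loss of transcription, the fall is no independent result.

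Among their neighbours no other gene was called. Of 37 protein-coding genes that start within 1 Mb of either viewpoint, 8 had enough counts, and Cpox and Cldnd1 were the 2 called in edgeR, both lower. Of all 17870 tested genes, 506 were called lower, 2.83%, and 577 in either direction, 3.23%. Dcbld2 had 85.7 and 103 CPM in DMSO and 112 and 99.1 CPM at 6 h. Col8a1, a collagen gene, had the next greatest decrease, from 4.65 and 2.29 CPM to 1.87 and 2.15 CPM, with an edgeR adjusted p of 0.366. St3gal6, Riox2, Crybg3 and Arl6 had log2 differences of -0.51, -0.10, 0.19 and -0.17 and were not called. None of the 25 olfactory receptor genes was tested, and their highest value in any DMSO or 6 h library was 0.0826 CPM. Gm813, E330017A01Rik, Gpr15 and Gabrr3 also had too few counts.

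**Figure D5:**
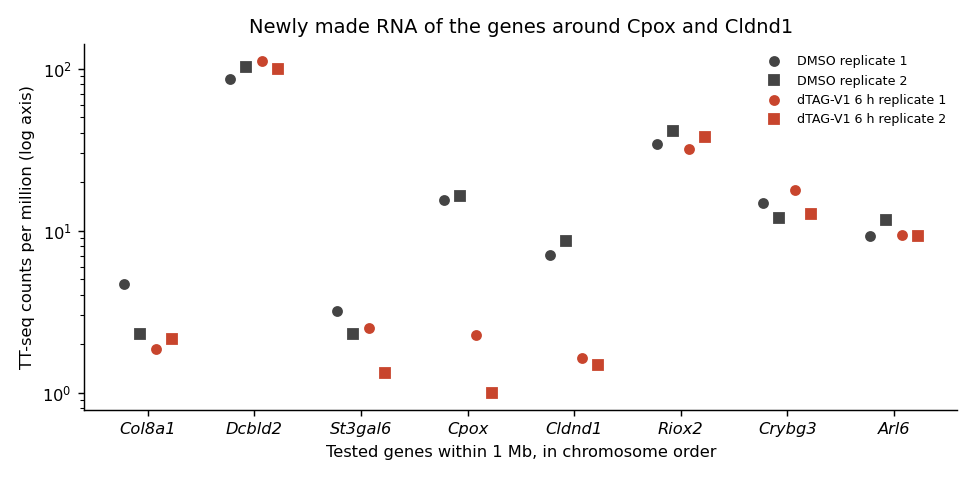
TT-seq CPM of the 8 tested genes near the viewpoints in the 2 DMSO and 2 dTAG-V1 6 h libraries (points, log axis). Cpox falls from 15.4 and 16.4 to 2.26 and 0.992 and Cldnd1 from 7.03 and 8.61 to 1.64 and 1.49, and the other 6 genes were not called.

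The transcripts of the depleted factor itself were higher, with Zfp143 at 71.3 and 74.4 CPM in DMSO and 161 and 164 CPM at 6 h, an edgeR log2 difference of 1.16 and an adjusted p of 0.00100. RNA does not show whether the protein was removed, and protein was not analysed here. All 8 embryonic stem cell markers, among them Pou5f1, Nanog and Sox2, passed the filter, with summed values of 3402 to 3670 CPM in DMSO and 3605 to 3816 CPM at 6 h. Of these edgeR called 0, with 1, Pou5f1, at an unadjusted p under 0.05, and DESeq2 called 0. Of the 10 markers of endoderm, mesoderm, neural cells and fibroblasts 3 passed, edgeR called 0 of them, with 0 at an unadjusted p under 0.05, and DESeq2 called 0. Their greatest sum was that of the endoderm list, 7.77 to 11.1 CPM in DMSO and 8.93 to 14.9 CPM at 6 h. TT-seq and 4C were separate samples, and transcription and contact were not compared within a sample.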

How the data were processed

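The 4C table deposited by the authors holds RPM, the reads of each restriction fragment relative to all counted reads of the library, after mapping to mm10 with BWA, removal of reads that mapped to several places and of blind fragments. Whole reads were recovered within a tolerance of 0.01. RPM was summed per 10 kb bin or per 10 kb window centred on a gene start, and log2(RPM + 10) was tested with limma 3.58.1 (R 4.3.3) with a mean-variance trend, for bins with a mean of at least 50 RPM, 1 fit per viewpoint, adjusted after Benjamini and Hochberg over the 7 viewpoints. A fold difference on this scale understates that of low bins. Called means an adjusted p under 0.05, and intervals are 95%. Sums were compared by exact two-sided permutation tests. TT-seq counts, deposited by the authors per gene, were tested with edgeR 4.0.16 (TMM, quasi-likelihood, genes above 10 counts in 4 or more of 8 libraries, 9721568 to 16532077 counts each) and called at that threshold with a log2 difference beyond 0.5 in either direction. TT-seq columns labelled 0 h were read as DMSO.

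The authors' ZFP143 peak list was called with MACS2 and gives each peak's ratio to input with its q-value as −log10, and the CTCF list, pooled by the authors over both conditions, positions only. The peak lists carry no replicates. Named bins were the 5 highest over the expected level, the 3 with the lowest p and those with a ZFP143 peak. Scripts were tested on simulated data. Members and lists were chosen with earlier results of these data known. PCR reads without molecular identifiers are not independent molecules.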

Additional observations from a re-analysis of the deposited data

How the results depend on the processing

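The contact of Cldnd1 with the Cpox window stayed at log2 differences of -0.44 to -0.39 with 1 library left out, and its limma adjusted p was 0.202 and 0.308 without dTAG-V1 replicates 1 and 2. It was also -0.42 with no mean-variance trend (adjusted p 0.828) and with 1 trend over 7 viewpoints (0.70), both chosen after the data had been seen, as was edgeR on the windows. The contact of Cpox with the Cldnd1 window ranged from -0.46 to -0.39 with 1 library left out. With the replicate block the limma adjusted p was 9.64e-20 for the first and 0.054 for the second, both at -0.42, and the pairing changed no call of theirs. Same-numbered libraries had deviations correlated at 0.15 for Cldnd1 and -0.098 for Cpox. With 2 pairs and no label of a shared batch this does not settle whether the numbers pair the samples, and the fits reported are without the block. Called Cldnd1 bins numbered 3 with the most read fragments of each library capped, 1 with 5 kb bins, with 20 kb bins and when scaled to the reads of the window, 0 for the share of fragments with a read, under the replicate block, with no trend and with 1 trend, and 0 to 5 with 1 library left out. Called Cpox bins numbered 0 to 5 with 1 library left out. Summed contacts turned to 0.101 for Cldnd1 and 0.136 for Cpox when fragments with a read were counted. The Arl6 bin ranged from -0.15 to 0.0336 from Cldnd1, positive without DMSO replicate 1, and from -0.46 to 0.82 from Cpox, negative without DMSO replicate 2 and, at -0.03, without dTAG-V1 replicate 2. In TT-seq Cpox ranged from -3.99 to -2.81, Cldnd1 from -2.46 to -2.15 and called genes within 1 Mb, which were Cpox and Cldnd1 themselves with all libraries, from 1 to 2 with 1 library left out. The causes were not tested. Bins beyond 100 kb had a lower median RPM and a wider median interval than nearer ones, and the part of depth in this was not tested.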
